A study of Mus musculus with 2 samples.

Results

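Tcea1, Tcea2 and Tcea3 are the 3 genes of the mouse genome that encode transcription elongation factor IIS, and they were followed here through every cell class of the embryonic pancreas. They were found by gene symbol and make up 3 of the 27998 genes in the deposited tables. The genes were selected on their CPM by cell class and on their ratio between the libraries, so all values below are descriptions and none was tested. In both embryos Tcea3 was highest in the acinar-fated tip of the epithelium and close to undetected in hormone-producing cells. It was lower in cells rich in transcripts of mitosis genes, in each class examined. Tcea1 was present in every class, at 69.7 to 137 CPM, and Tcea2 was sparse everywhere. In the epithelium Tcea3 was 2.09-fold higher in the knockout-labelled library. Its level was 66.0 UMIs per 1000000 UMIs of the class (CPM) in the control and 138 in the knockout-labelled library. Tcea1 was at 86.7 and 90.7 CPM in the same order. The libraries also differed in their mix of epithelial classes.

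Elongation factor IIS binds RNA polymerase II that has slid backwards on its template and stalled. It reaches into the pore of the enzyme and stimulates the polymerase to cut its own transcript, after which synthesis resumes. Tcea1 is the form made in most tissues, Tcea2 is known for its expression in testis, and Tcea3 is a tissue-restricted form. At this stage the pancreatic epithelium is divided into tips, which go on to make acinar cells that secrete digestive enzymes, and a trunk, which gives rise to ducts and, through cells that switch on the transcription factor Neurog3, to endocrine cells. Mesenchyme and a covering mesothelium surround the epithelium.

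The study profiled single cells from the pancreas of 1 control and 1 knockout C57BL/6 mouse embryo at embryonic day 13.5. The series names the mutant Dpy30∆P. Dpy30 is a core subunit of the complexes that methylate lysine residues on histone H3. The labels give neither the deleted segment, nor the driver of the deletion, nor the full genotype of the control. Live single cells were sorted by exclusion of a dye that stains dead cells, and libraries were made with 10x Chromium 3' chemistry, which counts the 3' ends of transcripts as unique molecular identifiers (UMIs), each standing for 1 captured molecule.

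The control library held 3900 cell barcodes and 32702089 UMIs, and the knockout-labelled library 3044 barcodes and 28033433 UMIs. After filtering, 3749 and 2938 cells were kept, and 22 barcodes occurred in both libraries. Dpy30 stood at 224 CPM in the control and 265 CPM in the knockout-labelled epithelium. A 3' count cannot check the deletion where the deleted segment is not known, so the label is kept as the name of the library. The embryos were of opposite sex, since Xist, the RNA that silences an X chromosome, was counted 2 and 56361 times. Haemoglobin and other erythroid markers were higher in the knockout-labelled library in every class, for example at 174 and 357 CPM in the epithelium, and their part in the results was not tested. With 1 embryo per group, sex, embryo, library and genotype cannot be told apart, and every interval below is a 95% interval for counting error only.

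Cells were sorted into classes by raw UMIs of marker genes. Epithelial cells numbered 730 in the control and 459 in the knockout-labelled library. Among them, tip cells (at least 5 UMIs over 6 acinar and tip markers, among them Ctrb1, Ptf1a and Rbpjl, and no Neurog3) numbered 255 and 221, and trunk cells (fewer of these and no Neurog3) 164 and 111. Cells with 1 to 4 Neurog3 UMIs numbered 107 and 53, cells with at least 5 (Neurog3-high) 124 and 54, and cells with at least 3 UMIs of Chga, a protein of hormone granules, 80 and 20. Mesenchyme held 2591 and 2120 cells and mesothelium 187 and 167. The labels of the classes held against further markers: trunk cells carried 5245 and 4123 CPM of 7 trunk markers that were not part of the gate, against 1949 and 1270 CPM in tip cells, and Chga-positive cells carried 26081 and 18174 CPM of 9 endocrine markers including Chga. Cftr, a ductal marker, was at 0 in the trunk of both libraries.

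The 3 genes are separate loci on separate chromosomes. In GENCODE M21 on GRCm38, Tcea1 (ENSMUSG00000033813) spans 4857814 to 4897909 on chromosome 1, Tcea2 (ENSMUSG00000059540) 181680310 to 181688071 on chromosome 2, and Tcea3 (ENSMUSG00000001604) 136247729 to 136274898 on chromosome 4, all on the plus strand, with 10, 10 and 11 exons in the main transcript. Their proteins end in a zinc ribbon, the domain that enters the polymerase. The last 60 coding bases, which encode the end of that ribbon and cross an exon junction, are shown to let the closeness of the paralogs be seen. A search of 60-base coding windows picked them for the most positions shared by all 3 genes. Capitals mark the 14 positions at which the genes are not all identical.
Tcea1: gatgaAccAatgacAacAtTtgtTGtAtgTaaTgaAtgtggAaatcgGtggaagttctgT
Tcea2: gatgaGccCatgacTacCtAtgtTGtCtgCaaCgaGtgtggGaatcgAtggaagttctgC
Tcea3: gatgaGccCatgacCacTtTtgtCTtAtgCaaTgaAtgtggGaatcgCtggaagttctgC
Even in this conserved stretch, where 46 of 60 positions are shared by all 3, the differences are spread along its length. Over their aligned coding sequences the genes were 68.8% (Tcea1 and Tcea2), 68.2% (Tcea1 and Tcea3) and 69.2% (Tcea2 and Tcea3) identical. The longest run of identical bases between a pair of main transcripts was 14, 12 and 26 bases in the same order. A pseudogene, Tcea1-ps1, copies Tcea1 at 99.3% identity and is absent from the gene list. The copy matches bases 101 to 1004 of the Tcea1 transcript, which leaves 1543 bases up to the 3' end outside it. Gm37988, a protein-coding gene on the same strand, overlaps the first part of Tcea1 but not its last exon.

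Tcea1, the form made in most tissues, was found in all 10 classes of both libraries. In the control its level was 130 CPM in mesothelium (exact Poisson interval 114 to 148), 118 in mesenchyme (113 to 124), 110 in neural cells, 110 in Neurog3-high cells, 101 in cells with 1 to 4 Neurog3 UMIs, 96.1 in Chga-positive cells, 80.3 in tip cells (72.4 to 88.8), 79.8 in endothelium, 74.9 in trunk and 69.7 in immune cells. In the knockout-labelled library it ran from 70.1 CPM in immune cells to 137 CPM in Chga-positive cells, with tip at 85.2 (76.4 to 94.7) and mesenchyme at 119 (114 to 124). No neighbours in either order had intervals that stood apart. Tip and mesenchyme, which are not neighbours, did stand apart: the level in tip was 0.68 times that in mesenchyme in the control (interval 0.61 to 0.76) and 0.72 times in the knockout-labelled library (0.64 to 0.80). A Tcea1 UMI was found in 481 of 730 control epithelial cells (65.9%) and 331 of 459 knockout-labelled ones (72.1%), and no cell of any class held more than 8.

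Tcea2, the paralog known from testis, was at the edge of detection. The control epithelium held 57 Tcea2 UMIs, or 5.74 CPM (4.35 to 7.43), and the knockout-labelled epithelium 37, or 5.37 CPM (3.78 to 7.40). Mesenchyme was at 3.83 and 3.51 CPM. The highest value in any class was 11.8 CPM in the control Chga-positive cells, from 8 UMIs, and in the 20 knockout-labelled Chga-positive cells it had 0, which allows up to 18.7 CPM. Intervals of Tcea2 overlapped between every pair of epithelial classes within each library, and of the ratios of tip to the other classes only that to control Chga-positive cells, 0.33 (0.14 to 0.87), excluded 1.

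Tcea3 had the widest range. In the control its level was 92.3 CPM in tip (83.8 to 101), 68.1 in Neurog3-high cells (53.8 to 85.0), 46.4 in cells with 1 to 4 Neurog3 UMIs (35.9 to 59.0), 46.3 in mesothelium (36.9 to 57.3), 38.4 in trunk (30.4 to 47.9), 10.6 in mesenchyme (9.12 to 12.3) and 5.91 in Chga-positive cells (1.61 to 15.1). The knockout-labelled library gave 174 CPM in tip (161 to 187), 115 in cells with 1 to 4 Neurog3 UMIs (90.7 to 144), 113 in Neurog3-high cells (88.0 to 143), 72.4 in mesothelium (60.3 to 86.2), 71.5 in trunk (58.3 to 86.8), 8.50 in mesenchyme (7.14 to 10.0) and 6.24 in Chga-positive cells (0.16 to 34.7). Tip was highest in both. Its level was 1.36 times that in Neurog3-high cells in the control (1.06 to 1.75) and 1.54 times in the knockout-labelled library (1.21 to 2.00), so these ratios excluded 1, although the control intervals of the levels overlapped slightly. Below tip, the intervals of the Neurog3 classes overlapped each other in both libraries, as did those of trunk and mesothelium, and those of mesenchyme and Chga-positive cells. Tip stood at 2.40 times the trunk level in the control (1.88 to 3.10) and 2.43 times in the knockout-labelled library (1.97 to 3.03).

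**Figure D1:**
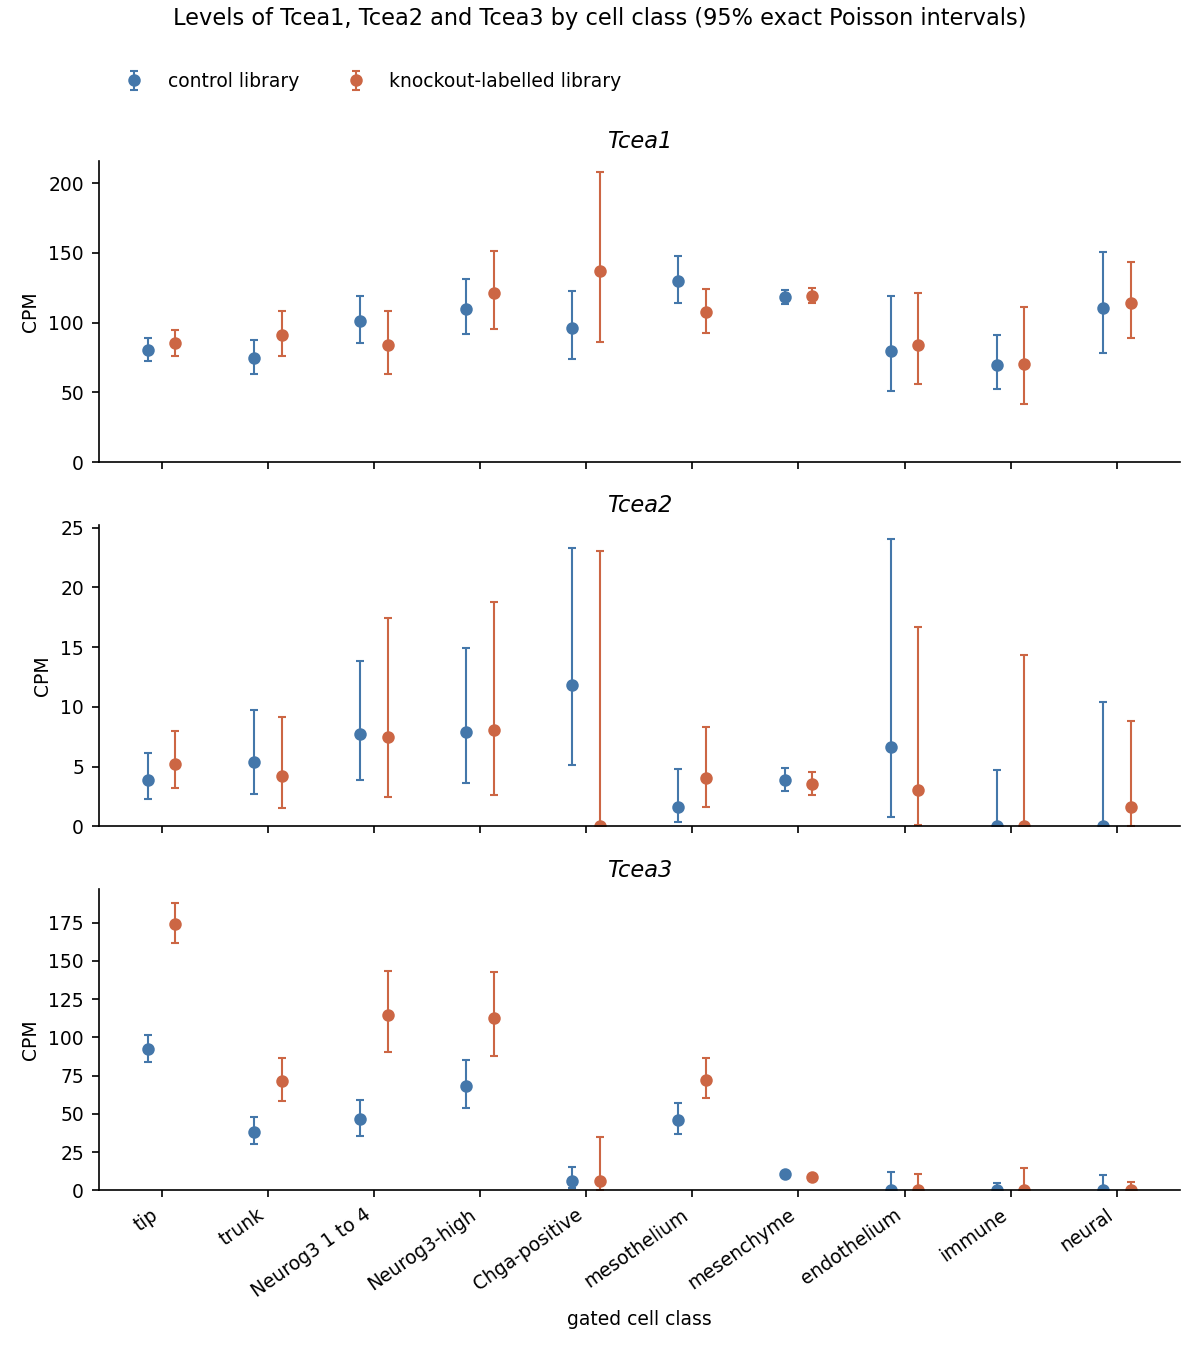
Level in CPM (vertical axis, from 0, a separate scale for each gene) of Tcea1, Tcea2 and Tcea3 in 10 gated cell classes, for the control (blue) and knockout-labelled (orange) library, 1 embryo each; bars are 95% exact Poisson intervals. Tcea1 lies between 69.7 and 137 CPM throughout, Tcea2 at or below 11.8 CPM, and Tcea3 is highest in tip, at 92.3 and 174 CPM, and at 0 in endothelium, immune and neural cells.

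Tcea3 was not found outside epithelium, mesothelium and mesenchyme among the named classes. Endothelial, immune and neural cells together, 153 in the control and 108 in the knockout-labelled library, held 0 Tcea3 UMIs of 1443258 and 1221802, which allows at most 2.08 and 2.46 CPM. The same cells held 118 Tcea1 UMIs in each library. In mesenchyme 142 of 2591 control cells (5.48%) and 107 of 2120 knockout-labelled cells (5.05%) had a Tcea3 UMI. For every 1000 UMIs of Cpa1 and Ctrb1 there were 18.4 Tcea3 UMIs in control tip cells, 216 in control mesenchyme and 1355 in control mesothelium, and the knockout-labelled values were 53.5, 238 and 4200. The part of free RNA in the mesenchymal and mesothelial values was not tested.

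In hormone-producing cells Tcea3 was nearly absent. Of the 80 control Chga-positive cells, 1 carried all 4 Tcea3 UMIs of the class, and of the 20 knockout-labelled cells 1 carried a single UMI. In the Neurog3-high cells, the stage that precedes them, 45 of 124 control cells (36.3%) and 24 of 54 knockout-labelled cells (44.4%) had a Tcea3 UMI. Tcea1 did not share this pattern, with a UMI in 44 of 80 and 13 of 20 Chga-positive cells. The median depth was 8694 and 9773 UMIs in Neurog3-high cells and 7719 and 7823 in Chga-positive cells.

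Within the Neurog3-negative epithelium Tcea3 was higher in cells with more tip marker UMIs. Cells were binned by their summed UMIs of the 6 tip markers, none of which is a Tcea gene. In control cells with 0, 1 to 4, 5 to 39, 40 to 149, and 150 and more of these UMIs, the level of Tcea3 was 42.5, 35.5, 50.2, 90.8 and 127 CPM. In knockout-labelled cells it was 77.2, 66.5, 122, 190 and 222 CPM. The lowest 2 bins had overlapping intervals in each library, and from the second bin upward each bin had a higher level than the one before it. The intervals of neighbours still overlapped between the 1 to 4 and 5 to 39 bins of the control and between the top 2 bins of the knockout-labelled library. Tcea1 showed no such order, at 74.5, 75.1, 92.6, 79.0 and 72.0 CPM in the control and 80.1, 101, 90.7, 81.3 and 86.2 CPM in the knockout-labelled library. Median depth rose along the bins of both libraries as well. It went from 10960 to 21102 UMIs per cell in the control and from 12450 to 18597 in the knockout-labelled library. The part of depth in the order, beyond the scaling to CPM, was not tested.

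The knockout-labelled library had the higher Tcea3 level in each of the 5 tip marker bins, and the intervals of the libraries stood apart in the upper 4. In the top bin they were 110 to 145 CPM for 78 control cells and 189 to 259 CPM for 35 knockout-labelled cells. Ptf1a, a transcription factor needed for acinar cells, split the tip less evenly. Tip cells without and with a Ptf1a UMI were at 88.8 and 96.3 CPM of Tcea3 in the control, with overlapping intervals, and at 145 (125 to 166) and 190 (173 to 207) CPM in the knockout-labelled library, where the intervals stood apart.

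Along Neurog3 the control level was lowest at intermediate counts. Control cells with under 3 Chga UMIs and with 0, 1 to 4, 5 to 14, and 15 and more Neurog3 UMIs were at 75.9, 46.4, 40.2 and 80.3 CPM of Tcea3, and knockout-labelled cells at 147, 115, 93.8 and 124 CPM. The bin without Neurog3 includes the tip. The 5 to 14 bin held only 34 control and 17 knockout-labelled cells. Control levels in the 1 to 4 and in the 15 and more bin did not overlap, at 35.9 to 59.0 and 61.8 to 102 CPM, while in the knockout-labelled library these intervals did overlap. In the knockout-labelled 15 and more bin 1 of the 37 cells held 18 of the 49 Tcea3 UMIs, and without it (a comparison chosen after seeing the data) the level was 85.1 CPM, below that of the 5 to 14 bin, so no shape along Neurog3 is given for that library.

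**Figure D2:**
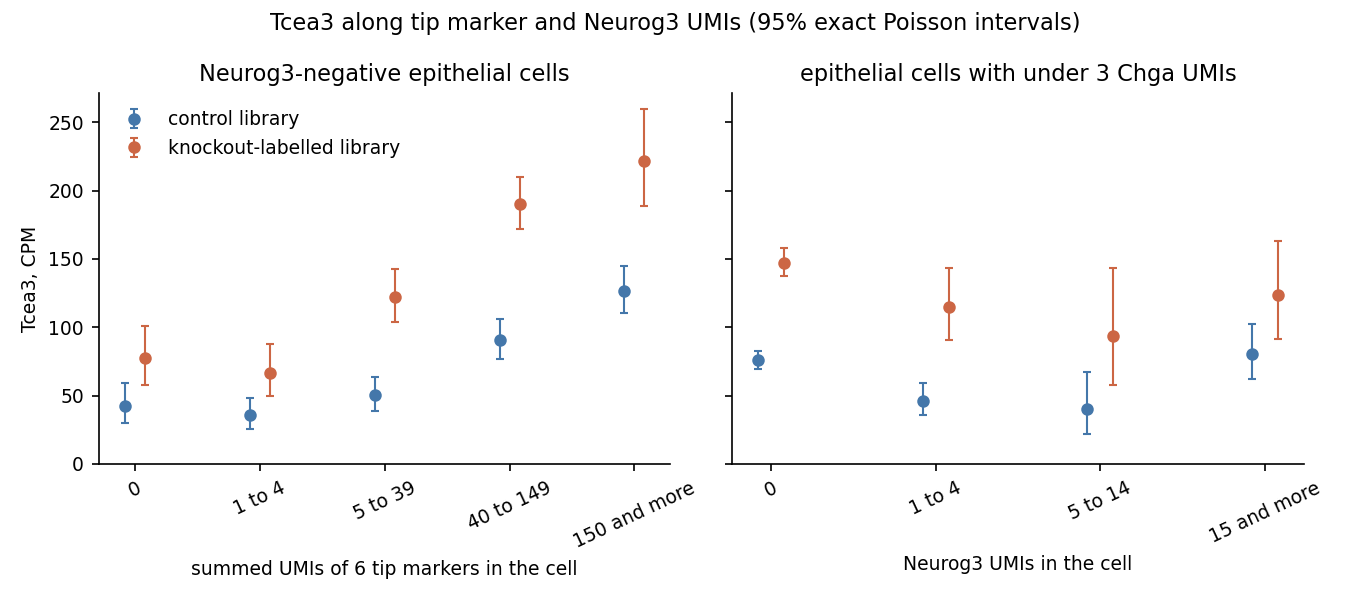
Level of Tcea3 in CPM (vertical axis, from 0) in Neurog3-negative epithelial cells binned by summed UMIs of 6 tip markers (left) and in epithelial cells with under 3 Chga UMIs binned by Neurog3 UMIs (right), for the control (blue) and knockout-labelled (orange) library; bars are 95% exact Poisson intervals. On the left the level reaches 127 CPM in the control and 222 CPM in the knockout-labelled library, and the orange point is above the blue one in every bin of the left panel. On the right the orange bin with 15 and more Neurog3 UMIs rests in part on 1 cell with 18 Tcea3 UMIs.

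Cells with more UMIs of mitosis genes carried less Tcea3. Cells of 4 classes were split at 10 UMIs over 6 genes of mitosis, Ube2c, Top2a, Cenpf, Nusap1, Prc1 and Ccnb1. No list of genes for DNA replication was used, so dividing cells at that stage were not set apart. In the control tip 143 cells below the limit were at 118 CPM (104 to 134) and 112 cells at or above it at 70.7 CPM (60.8 to 81.8). In the knockout-labelled tip 169 cells below it were at 206 CPM (189 to 224) and 52 at or above it at 105 CPM (88.4 to 125). The trunk gave 49.8 and 23.1 CPM in the control and 89.5 and 28.6 CPM in the knockout-labelled library. Mesenchyme gave 12.5 and 3.02 CPM and then 10.0 and 3.29 CPM, and mesothelium 61.5 and 26.6 CPM and then 80.1 and 44.8 CPM. The mitotic cells were thus lower in 8 of 8 pairs, and in 7 of 8 the intervals stood apart, the knockout-labelled mesothelium being the exception. Splitting by the share of mitotic UMIs (8 per 10000) instead of their number, chosen after seeing the data, again gave 8 of 8 lower and 7 of 8 apart.

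Tcea1 was also lower in the mitotic cells in 7 of 8 pairs, and its intervals stood apart in 0 of 8. In the tip it was at 81.9 CPM below the mitotic limit and 79.0 CPM above it in the control, and at 91.1 and 72.4 CPM in the knockout-labelled library. The trunk gave 78.2 and 70.4 CPM and then 96.4 and 78.5 CPM, and mesothelium 139 and 119 CPM and then 111 and 95 CPM. In mesenchyme Tcea1 was at 122 and 105 CPM in the control and, the 1 pair in the other direction, at 117 and 126 CPM in the knockout-labelled library. Mitotic cells were deeper, with a median of 23383 against 14518 UMIs in the control tip. The difference in Tcea3 between the libraries was present on both sides of the split in the tip, at 118 and 206 CPM in the less mitotic cells and 70.7 and 105 CPM in the more mitotic ones. In the trunk the intervals of the less mitotic cells stood apart, at 37.8 to 64.4 and 72.0 to 110 CPM, and those of the mitotic cells overlapped, at 14.1 to 35.7 and 14.8 to 49.9 CPM. The difference between the sides was not tested.

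**Figure D3:**
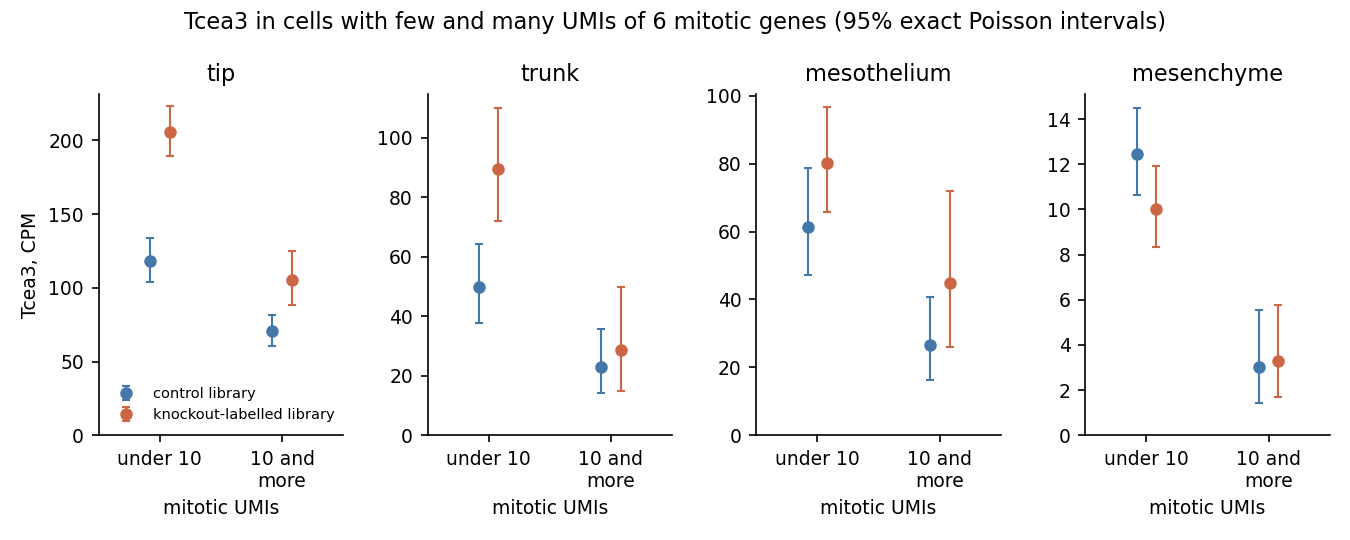
Level of Tcea3 in CPM (vertical axes, from 0, a separate scale for each class) in cells with under 10 and with 10 and more UMIs of 6 mitotic genes, in tip, trunk, mesothelium and mesenchyme of the control (blue) and knockout-labelled (orange) library; bars are 95% exact Poisson intervals. In all 8 pairs the mitotic cells are lower, for example 206 against 105 CPM in the knockout-labelled tip.

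Mesenchyme was not uniform in Tcea3 either. Wt1 is a transcription factor of the mesothelium and of mesenchyme derived from it. Mesenchymal cells without and with a Wt1 UMI were at 9.75 (8.23 to 11.5) and 16.8 CPM (11.7 to 23.3) in the control and at 6.55 (5.28 to 8.03) and 21 CPM (15.4 to 28.1) in the knockout-labelled library, with intervals apart in both. Tcf21, another mesenchymal transcription factor, split the libraries differently: cells without and with it were at 8.96 and 16.6 CPM in the control, with intervals apart, but at 9.19 and 6.68 CPM in the knockout-labelled library, where they overlapped. Tcea1 in mesenchyme was between 106 and 123 CPM on every side of both splits. Mesothelium itself carried 1262 and 1307 CPM of 7 mesenchymal markers. Mesothelial cells with few UMIs of their gate markers can therefore fall into mesenchyme, and their part in the splits was not tested.

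The comparison the series was designed for sets the knockout-labelled library against the control. Ratios are given as log2 of (CPM + 5) of the knockout-labelled over the control library, and a gene was counted as past the fold when this ratio reached 1.5-fold in either direction. In the epithelium 1 of the 3 genes, Tcea3, was past the fold and higher, where 0.789% of the 12037 genes with at least 20 UMIs were. Its log2 ratio was 1.01 (interval 0.87 to 1.14), and 12 genes had a higher one. With each epithelial class given the same weight in both libraries the ratio was 0.88. Tcea1 stood at 0.06 (-0.08 to 0.20) and Tcea2 at -0.05 (-0.36 to 0.26), and none of the 3 was past the fold and lower, where 1.97% of genes were.

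The higher level of Tcea3 was found in tip, in trunk and in cells with few Neurog3 UMIs. In tip cells its log2 ratio was 0.88 (0.71 to 1.05) and it was the only 1 of the 3 past the fold and higher, where 2.08% of 10373 measured genes were; 0 of the 3 were lower, where 2.11% were. A Tcea3 UMI was found in 166 of 255 control tip cells (65.1%) and in 191 of 221 knockout-labelled ones (86.4%), at median depths of 17279 and 17547 UMIs. Thinned to 3000 UMIs per cell the shares were 22.0% (17.0 to 27.5) and 35.7% (29.4 to 42.4). Control tip cells with 0, 1, 2, and 3 or more Tcea3 UMIs numbered 89, 62, 35 and 69, and knockout-labelled ones 30, 37, 41 and 113. Fewer knockout-labelled cells had 0 or 1 and more had 3 or more, and the 5 cells with the most held 10.2% and 7.44% of the UMIs. Tcea1 in tip cells stood at 0.08 and Tcea2 at 0.21, both with intervals that included 0. Of the tip cells, 112 of 255 in the control and 52 of 221 in the knockout-labelled library were at or above the mitotic limit. The part of this in the ratio of Tcea3 was not tested.

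In the trunk the log2 ratio of Tcea3 was 0.82 (0.43 to 1.20), past the fold where 3.5% of 9075 measured genes were higher and 4.37% lower. With cells thinned to 3000 UMIs it was 0.50, short of the fold, and the shares of trunk cells with a UMI were 13% (8.21 to 19.1) and 18.0% (11.4 to 26.4), with overlapping intervals. In cells with 1 to 4 Neurog3 UMIs it was 1.22 (0.78 to 1.66), where 8.33% of 7746 were higher and 6.92% lower. There 5 cells held 29 of the 66 control UMIs, and 5 held 35 of the 77 knockout-labelled ones. With cells thinned to 3000 UMIs the ratio was 1.54. The shares with a UMI were then 11.3% (5.99 to 18.9) and 26.4% (15.3 to 40.3), with overlapping intervals. Tip markers in this class were at 963 and 169 CPM, and the part of this difference was not tested. In Neurog3-high cells the log2 ratio of Tcea3 was 0.69 (0.25 to 1.13), where 6.83% of 7324 were higher and 6.85% lower. That value rested on few cells: 5 of the 54 knockout-labelled cells held 37 of the 70 UMIs, and 1 of them held 18. The ratio was 0.30 when each cell was given equal weight and -0.30 when cells were thinned to 3000 UMIs, the share with a UMI then being 16.1% in the control and 13% in the knockout-labelled library. No direction is therefore given for Tcea3 in Neurog3-high cells. In Chga-positive cells only Tcea1 had enough UMIs to be measured, at 0.49 (-0.18 to 1.16), short of the fold, where 9.81% of 5288 genes were past it and higher and 15.5% lower.

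Outside the epithelium the values were smaller. In mesenchyme 0 of the 3 genes were past the fold in either direction, where 0.503% of 12919 genes were higher and 0.782% lower. Tcea3 there was at -0.21 (-0.42 to -0.0022), and an exact interval of its CPM ratio, 0.80 (0.636 to 1.004), included 1. Tcea1 in mesenchyme stood at 0.01 (-0.08 to 0.09). In mesothelium Tcea3 was at 0.60 (0.23 to 0.96), past the fold where 3.88% of 9238 genes were higher and 4.77% lower. After thinning to 3000 UMIs the mesothelial ratio was 0.07, and the shares of cells with a UMI were 19.4% and 19.2%, against 31.6% and 41.3% before. Median depth in mesothelium was 8747 and 10025 UMIs, and its part in the difference was not tested. Tcea1 in mesothelium stood at -0.26 (-0.53 to 0.0026).

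**Figure D4:**
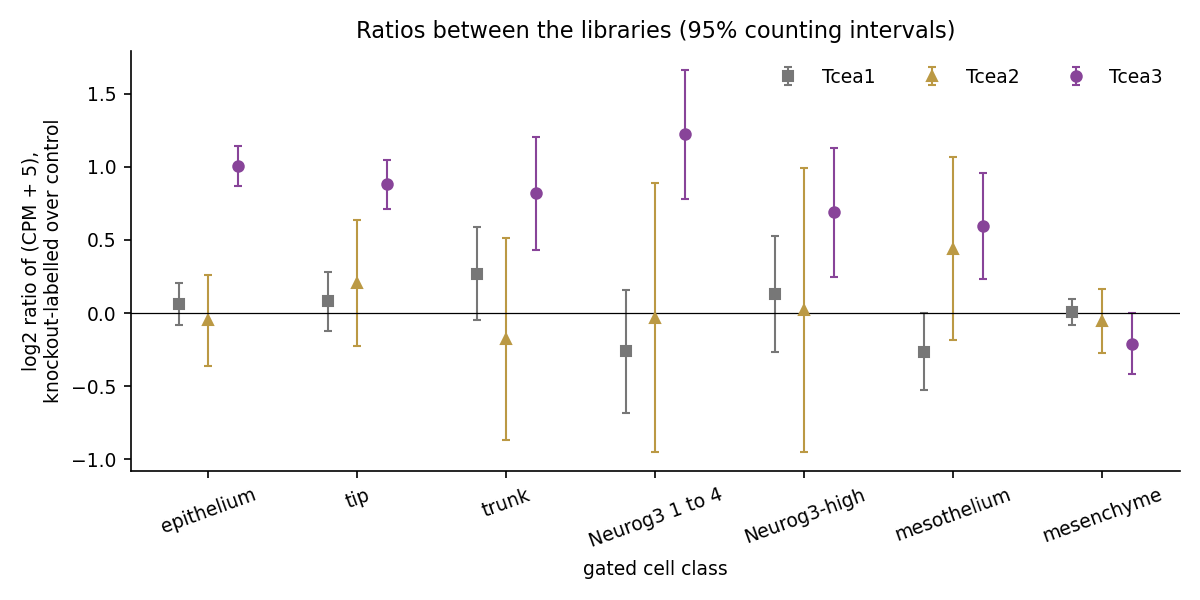
Ratio of the knockout-labelled to the control library (vertical axis, log2 of CPM + 5, 0 meaning equal) for Tcea1 (grey squares), Tcea2 (gold triangles) and Tcea3 (purple circles) in the epithelium, its classes other than Chga-positive cells, mesothelium and mesenchyme. Bars are 95% counting intervals. Tcea3 lies at 0.88 in tip and 1.22 in cells with 1 to 4 Neurog3 UMIs but at -0.21 in mesenchyme, and every bar of Tcea1 and Tcea2 includes 0.

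Most of the elongation machinery stayed within 1.5-fold between the libraries, as did most of all measured genes. A list of 61 genes was used, made up of subunits of RNA polymerase II, factors that pause, release or accompany it, other proteins with a domain like that of elongation factor IIS, and the Tceal family. In the epithelium 58 of the 61 were measured, 30 with a ratio above 0 and 28 below, where 45.0% of all measured genes were above 0. Past the fold, 1 was higher and 0 were lower, beside 0.789% and 1.97% of all genes. The median was 0.0048, beside -0.024 over all 12037 genes. In mesenchyme 59 were measured, 29 above 0 and 30 below, where 46.3% of all genes were above 0. Past the fold 1 was higher and 0 lower, beside 0.503% and 0.782% of all genes, and the median was -0.0088 beside -0.012 over all genes. In the tip 56 were measured, and 0 were past the fold in either direction, beside 2.08% and 2.11%. In the trunk, of 53 measured, 1 was higher and 0 lower, beside 3.5% and 4.37%. That gene was Tceal1, named after its values were seen, at 11.3 and 20.3 CPM from 23 and 29 UMIs (0.63, interval 0.05 to 1.22). In mesothelium, also of 53, 1 was higher and 0 lower, beside 3.88% and 4.77%.

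By role, the 13 listed polymerase II genes had 9 ratios above 0 and 4 below in the epithelium, where 45.0% of all genes were above 0; that share is the background of the counts by role that follow. Polr2a, the catalytic subunit, was at -0.11 (-0.29 to 0.06). Polr2i, a small subunit that takes part in transcript cleavage, was at 0.05 (-0.05 to 0.15). Polr2l, a subunit shared by the 3 nuclear polymerases, was at 0.20 (0.10 to 0.31). Polr2m, which associates with the polymerase, was the 1 listed gene past the fold in the epithelium, at 57.7 and 92.0 CPM (0.63, interval 0.48 to 0.78). Unlike Tcea3 it was as high outside the epithelium, at 0.73 (0.62 to 0.84) in mesenchyme and 0.76 (0.42 to 1.09) in mesothelium.

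Among the 36 factors that pause, release or accompany the polymerase, 17 were above 0 and 19 below. Supt4a and Supt5, the partners that form the DSIF pausing and elongation complex, were at 0.25 (0.12 to 0.38) and 0.16 (0.01 to 0.31) in the epithelium. In mesenchyme Supt5 was at -0.18 (-0.28 to -0.08). Ssrp1, a subunit of the FACT histone chaperone, was at -0.19 (-0.27 to -0.11). Of the 5 other proteins with a related domain, 3 were above 0 and 2 below. The Tceal family, whose genes are on the X chromosome, had 4 of 7 members measured in the epithelium, 1 above 0 and 3 below, with Tceal8 at -0.19 (-0.29 to -0.09). In the epithelium none of the 58 measured genes but Polr2m reached 1.5-fold, beside 0.789% of all genes higher and 1.97% lower.

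The genes whose levels ran most like each member were found by Pearson correlation of log2(CPM + 5) over 20 values, 10 classes in 2 libraries, among genes that reached 50 CPM in at least 1 value. The 20 values share 2 libraries and differ in depth, so the correlations are descriptions. Nearest to Tcea3 were Echdc2 (0.93), Akr7a5 (0.92), Wfdc2 (0.90), Cdh3 (0.89), which encodes P-cadherin, and Smtnl2 (0.89). Not all of them shared its difference between the libraries: in the tip Echdc2 was at 50.9 and 48.1 CPM and Wfdc2 at 471 and 308 CPM, while Akr7a5 was at 122 and 155 CPM. Nearest to Tcea1 were Rsrc2 (0.91), Atxn7l3b (0.87), Auts2 (0.86), Rbm39 (0.85), which encodes an RNA-binding protein of splicing, and Clip3 (0.85). For Tcea2, with few UMIs behind each value, they were Csnk2b (0.81), a subunit of casein kinase, Atg4b (0.80), an autophagy protease, Stt3a (0.79), a subunit of the glycosylation enzyme of the endoplasmic reticulum, Ccpg1os (0.78) and Ccdc58 (0.77).

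The authors' deposited table lists genes that mark each of 7 epithelial clusters against the others, over cells of the study. Tcea3 is listed in that authors' deposited table for 3 clusters, and Tcea1 and Tcea2 for none. In the cluster whose leading genes include Ctrb1, Spink1 and Pnliprp1, all products of acinar cells, the authors' deposited table gives Tcea3 an average log fold of 0.60 (natural log), with the gene found in 85.2% of cells inside and 45.8% outside. A further cluster with acinar leading genes (among them Pnliprp1 and Spink1) and the one led by Neurog3 and Cck do not list Tcea3 in the authors' deposited table, whose smallest listed size is a natural log fold of 0.25. The cluster whose leading genes include Hist1h2ap, Rrm2 and Hells, and the one led by Spp1 and Cyr61, do not list Tcea3 there either. In the cluster led by Gcg, Pyy, Slc38a5 and Chgb, an endocrine set, the authors' deposited table gives -0.64, with 2.3% inside and 54.2% outside. In the cluster led by the mitotic genes Ube2c, Cenpf, Top2a and Nusap1, the authors' deposited table gives -0.43, with 30.4% inside and 53.1% outside. The table was made from these cells, so it is no independent support for the levels by tip, endocrine and mitotic cells given above.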

How the data were processed

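Single-cell libraries of 1 control and 1 knockout-labelled embryo were analysed, grouped by sample title. The deposited matrices are raw UMI counts that the authors produced with Cell Ranger and GRCm38 (mm10), per the submitters' processing notes; its version and the annotation were not given in the sources used here. A cluster table deposited by the authors gives an average log fold, read here as a natural log, and the fraction of cells with each gene inside and outside a cluster, per the file headers (0 to 1). The authors' p-values in it, computed over cells per the file headers, were not used.

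Barcodes under 500 genes or under 1000 UMIs, or above 10% mitochondrial UMIs, were dropped, which removed 29 control and 32 knockout-labelled barcodes. The highest-scoring 0.8% per 1000 barcodes by a simulated-doublet score, 122 and 74 cells, were then removed. Classes were gated on raw UMIs: epithelium at least 3 over Epcam, Cdh1, Cldn6, Cldn7 and Cldn3, mesenchyme at least 3 over Col1a1, Col1a2 and Col3a1, mesothelium at least 3 over Upk3b, Upk1b, Msln and Lrrn4, and endothelium, immune and neural cells at least 3 over 4 markers each. A mixed group (8 and 5 cells) was left out of the classes. It held epithelial cells with at least 10 collagen UMIs, or in an endothelial, immune or neural gate. It also took non-epithelial cells in any of those gates together with another of them or with the mesothelial gate. Mesothelium took cells that passed its gate and none of those gates, also when they passed the epithelial gate. Cells in no gate (80 and 79) were left out too. The gate minimums other than those of Neurog3 and Chga, the tip marker bins and the mitotic, Ptf1a, Wt1 and Tcf21 splits were chosen after seeing the counts.

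UMIs were summed per class and library and given as CPM with exact Poisson intervals; shares of cells have exact Clopper-Pearson intervals; ratios have counting intervals on the log2(CPM + 5) scale, and the ratio of CPM an exact conditional interval. A count of 0 was given a limit of 3 counts. No test was run, each group being 1 library. The scripts were tested on simulated data. Genes were measured at 20 UMIs over both libraries. Named genes are the 3 members, the 5 most correlated with each, the 3 highest and 3 lowest elongation genes in the epithelium at 50 CPM or more, and Polr2a, Polr2i, Supt5 and Supt4a; 1 of the lowest is not reported here. The members and lists were chosen with earlier results of these data known. Alternatives were other cell filters, doublet rates, gates, scales (edgeR 4.0.16 for TMM), thinning, weights, pseudocounts and list minimums. Python 3.11.15, numpy 2.4.6 and scipy 1.17.1 were used.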

Additional observations from a re-analysis of the deposited data

Results flagged for a closer look

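The ratio of Tcea3 between the libraries had opposite signs in different classes. In mesenchyme it was -0.21 on the log2 scale, with a lower knockout-labelled value. It was 0.88 in tip, 0.82 in trunk, 1.22 in cells with 1 to 4 Neurog3 UMIs, 0.69 in Neurog3-high cells and 0.60 in mesothelium, all with a higher knockout-labelled value. The difference between these ratios was not tested, since each class has 1 library per group. In mesenchyme the exact interval of the CPM ratio included 1, and in Neurog3-high cells the sign turned under thinning.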

How the results depend on the processing

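Each of the 24 ratios of the 3 genes was recomputed under 13 or 14 alternatives. Of the 315 values, 303 lay within the counting interval of the reported ratio, which is wide for Tcea2 and for small classes. Another 10 lay outside it, and in 2 cases a ratio whose interval excluded 0 turned sign. Both were Tcea3 in Neurog3-high cells, at -0.018 with gates on thinned UMIs and -0.30 with cells thinned to 3000 UMIs; the cause was not tested. A further 8 values, over 6 ratios whose interval included 0, changed sign as well. Thinning of cells also moved Tcea3 to 1.11 in tip and 0.074 in mesothelium. In trunk it gave 0.50, inside the counting interval but below 1.5-fold. Gates on thinned UMIs moved Tcea3 to 1.22 in trunk and 1.90 in cells with 1 to 4 Neurog3 UMIs. In Chga-positive cells, with few UMIs, thinned cells gave 2.12 and thinned gates 1.87. Tcea3 in the epithelium stayed between 0.87 and 1.11 under all 14 alternatives, including 0.88 with each class given the same weight in both libraries, and in mesenchyme between -0.29 and -0.03 under all 13. Tcea1 in the epithelium stayed between 0.05 and 0.10. For the elongation list in the epithelium, alternatives added after seeing the data gave 2 genes higher past the fold with a pseudocount of 1 and 0 with a pseudocount of 20, and 2 genes lower with thinned cells. No paired analysis was possible because each group holds 1 library, and for the same reason no replicate could be left out. Depth limits Tcea2 in every class and Tcea3 in Chga-positive cells.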
